A study of Mus musculus with 2 samples.

Results

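Keratin genes were examined as a family in single cells of mouse back skin, across the cell types of the skin and between a control mouse and a mouse with inducible miR-205. Members were all genes named Krt followed by a number and at most 1 letter that reached at least 20 unique molecular identifiers (UMIs, 1 per captured transcript) over the kept cells of both libraries. Of 31053 annotated genes 53 matched the name, and 29 of these reached the minimum, 14 of type I and 15 of type II. Just inside the minimum were Krt4 with 22 UMIs and Krt13 with 25, and just outside were Krt12 with 18 and Krt31 with 15.

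The study asked which early changes follow induction of miR-205 in skin, ahead of visible hair growth, and measured transcripts of single cells in droplets at postnatal day 53, in 1 library per mouse. The induced mouse carried miR-205 under a doxycycline-responsive promoter, bred to a transactivator driven by the Krt14 promoter, and received doxycycline chow for 4 days. Both mice carried a nuclear green fluorescent histone reporter that is itself under the Krt14 promoter (K14-H2BGFP), and both are given as C57BL/6, although the miR-205 transgene was made in FVB. Under the extraction protocol both mice were fed doxycycline from postnatal day 49, but the control's own label reads untreated, and the sources used here do not say whether the control carried the transactivator. Sorted epidermal, follicle and dermal cells were pooled at 3:5:2, which sets the number of cells of each type. With 1 library per group no difference has a replicate check. All intervals are at 95% and cover counting error only, and none of them measures the spread between mice.

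Keratins are the intermediate filament proteins of epithelia, and each filament is built from a type I and a type II keratin that pair. Basal keratinocytes and the outer root sheath use the type II keratin Krt5 with the type I keratin Krt14, and cells that leave the basal layer of the interfollicular epidermis (IFE) switch to Krt1 with Krt10. Hair follicles add regional keratins, such as Krt15 in the bulge where hair follicle stem cells (HF-SCs) reside, Krt6a and Krt75 in the inner bulge or companion layer, and Krt17 and Krt79 in the upper follicle. The simple keratins Krt8, Krt18, Krt19 and Krt7 belong to single-layered epithelia and Merkel cells. In the mouse type I genes lie in a cluster on chromosome 11 and type II genes in a cluster on chromosome 15, except Krt18, a type I gene beside Krt8. Of the 29 members, 13 were on chromosome 11 and 16 on chromosome 15.

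Since the agent is a microRNA, its sequence and the keratin transcripts were compared first. The mature microRNA mmu-miR-205-5p lies on the minus strand of chr1:193507503-193507524 (RefSeq, build GRCm38.p6). Capitals mark its seed, bases 2 to 8, which pairs with the 7 letters ATGAAGG in a target.
mmu-miR-205-5p: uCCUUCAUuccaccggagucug
None of the 28 members with an annotated 3′ UTR held that 7-base site, against 10.4% of 19915 genes. The members' UTRs were short, with a median of 303 bases against 893 over those genes, and sites outside UTRs or with imperfect pairing were not searched. The libraries count 3′ ends of polyadenylated RNA, so the mature microRNA itself was not measured. Its host transcript, 4631405K08Rik, was at 102.9 CPM (100.1 to 105.7) in control cells and 105.6 CPM (102.6 to 108.6) in induced cells, where CPM scales UMIs to 1000000 UMIs of the cells summed. A transgene need not include that transcript.

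Promoter windows, from 250 bases before to 50 bases after a start site in the RefSeq table, were held for 20 of the 29 members and 32851 windows in all. For 16 of the 20 that site was the outer end of the gene or within 1 base of it, and for Krt14, Krt10, Krt78 and Krt2 it lay inside the gene as annotated, by 8085 bases for Krt10. The TATA box TATAAA was found in 7 of the 20 (35.0%) and in 13.6% of all windows, on either strand. The CCAAT box was found in 8 of 20 (40.0%) against 37.4%, and the AP-1 motif TGANTCA in 1 of 20, Krt13, against 7.81%. The windows of 3 members that the results below turn on are printed with motif matches in capitals (RefSeq, GRCm38.p6, each on the minus strand, at chr11:99389315-99389614 for Krt10, chr11:99285213-99285512 for Krt24 and chr15:101869656-101869955 for Krt77).
Krt10 promoter: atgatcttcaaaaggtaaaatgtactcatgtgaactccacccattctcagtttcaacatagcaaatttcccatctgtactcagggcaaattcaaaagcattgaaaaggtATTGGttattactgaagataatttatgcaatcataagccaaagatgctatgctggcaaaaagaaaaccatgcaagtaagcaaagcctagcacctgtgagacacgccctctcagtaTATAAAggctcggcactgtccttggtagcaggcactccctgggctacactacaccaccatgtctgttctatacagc
Krt24 promoter: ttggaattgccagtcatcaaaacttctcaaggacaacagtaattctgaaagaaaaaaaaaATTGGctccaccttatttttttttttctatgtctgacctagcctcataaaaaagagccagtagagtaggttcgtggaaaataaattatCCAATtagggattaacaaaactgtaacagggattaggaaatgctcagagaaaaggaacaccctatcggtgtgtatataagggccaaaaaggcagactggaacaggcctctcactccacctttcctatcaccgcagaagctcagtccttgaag
Krt77 promoter: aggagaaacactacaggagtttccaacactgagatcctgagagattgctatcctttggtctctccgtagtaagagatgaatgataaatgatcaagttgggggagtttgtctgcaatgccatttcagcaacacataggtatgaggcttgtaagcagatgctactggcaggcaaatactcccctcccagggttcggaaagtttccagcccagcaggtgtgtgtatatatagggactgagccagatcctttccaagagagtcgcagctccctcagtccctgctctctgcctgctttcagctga
In Krt10 the TATA box begins at position −26 from that start site and a CCAAT box, read on the other strand as ATTGG, at −141. In Krt24 CCAAT boxes begin at −190 and −102. In Krt77 none of the 3 motifs was found. These matches describe letters and show no binding.

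The filter left 3936 control and 3628 induced cells, with a median of 12198.5 and 11752.5 UMIs per cell. Clustering was made without any keratin gene, and clusters were named from markers that are not keratins, so that keratin levels are not what defines a cluster. It gave 24 clusters, 15 epithelial and 9 other. In 17 clusters at least 3 markers of a class were raised and met the naming rule given below, and the other 7 are called by number. Of the unnamed epithelial clusters, cluster 2 was led by Serpina3g, Vsnl1 and Lgr6, cluster 3 by Nts, Ccl1 and Tnfsf18, cluster 8 by Col4a4, Pthlh and Hhip, cluster 9 by Tagln, Acta2 and Slc7a8, cluster 11 by Slc2a12, Popdc3 and Edn2, and cluster 12 by Csn3, Wfdc18 and Plin2. The IFE basal-like cluster met the marker rule with Ly6a, Thbs1, Igfbp3 and Epgn. None of these was among its 10 leading genes, which began with Mmp10 and Sprr2a3. All IFE basal markers summed to 5624 CPM there in control and 5053 CPM in induced cells. In HF-SC-like cells they summed to 7276 and 4197 CPM, and in cluster 8 to 8134 and 7419 CPM. The IFE suprabasal-like cluster was named from Krtdap, Mt4 and Dmkn, 3 of 7 markers. In control cells those 7 summed to 9276 CPM there, 13726 CPM in upper HF-like and 11516 CPM in inner bulge-like cells. In induced cells they summed to 12401, 11969 and 11197 CPM. Inner bulge-like cells were named from Fgf18, Bmp6 and Foxc1, although 5 HF-SC markers were raised in them. Of 11 barcodes shared by the libraries, 5 were among kept cells.

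Keratin transcripts made up 2.64% of all UMIs of epithelial clusters in the control library and 2.58% in the induced library. The share was highest in cluster 11 (3.64% and 3.46%), followed by IFE basal-like cells in control (3.29%) and by the HF-SC-like cluster 17 in induced cells (3.42%), and was lowest in sebaceous gland-like cells (0.81% and 0.65%). Type I transcripts outnumbered type II in every epithelial cluster of both libraries, by 3.06 to 1 over the control epithelial cells and 2.81 to 1 over the induced. That ratio ran from 1.75 in induced upper HF-like cells to 6.48 in induced cluster 9. UMIs count 3′ ends, so transcript length does not enter these comparisons between genes, but capture can still differ between genes. Krt14, Krt17, Krt15 and Krt5 together held 82.8% of the keratin UMIs of control epithelial cells and 81.0% of the induced. All the other 25 members shared the remainder.

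**Figure D1:**
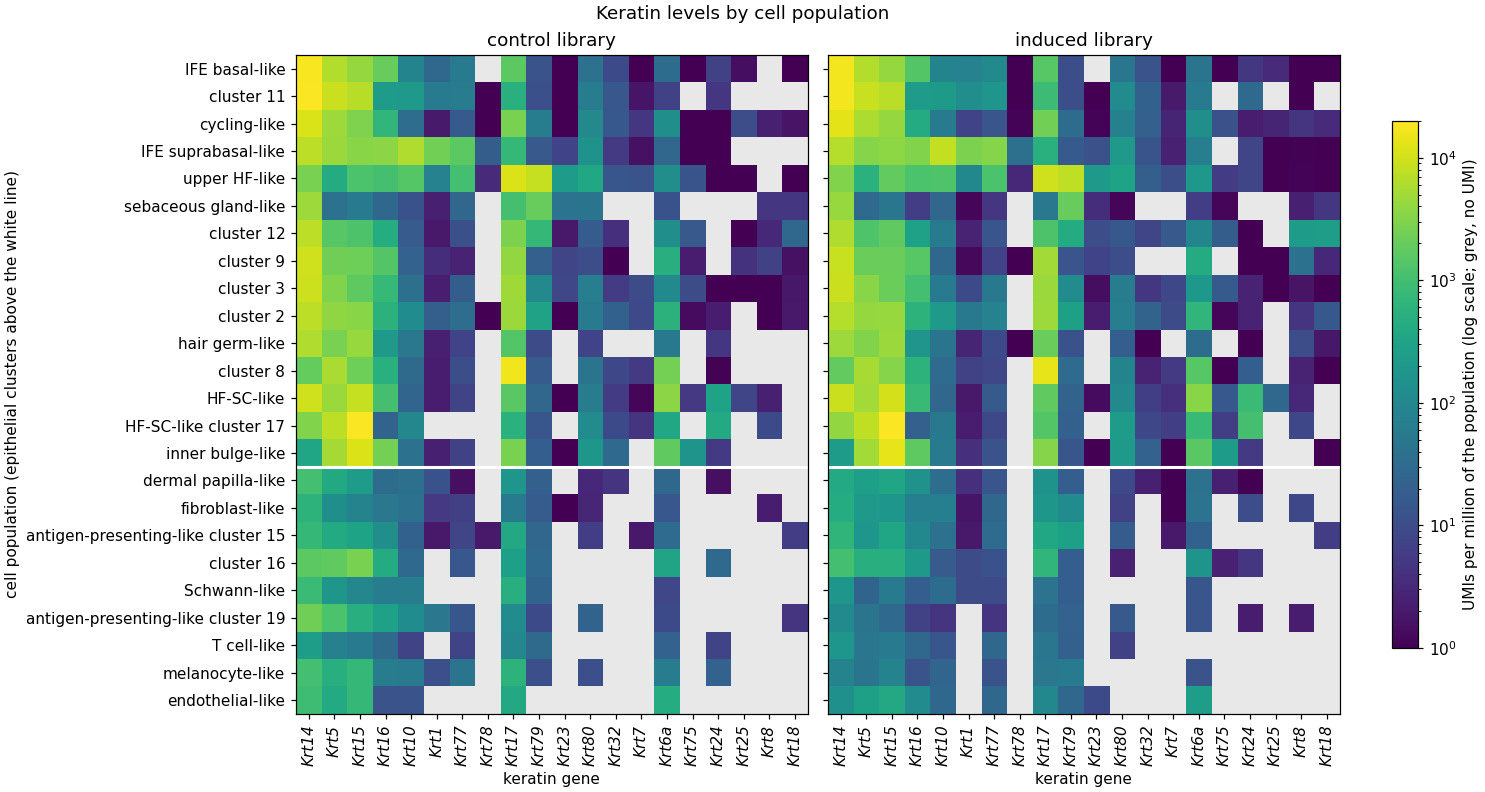
Level of the 20 members with most UMIs (columns) in each of the 24 clusters (rows), in CPM of the cluster on a log colour scale, control on the left and induced on the right, with grey where no UMI was found. Krt14, Krt5 and Krt15 are high in most epithelial clusters, whereas Krt10, Krt1 and Krt77 peak in IFE suprabasal-like cells, Krt79 in upper HF-like cells and Krt24 in HF-SC-like cells.

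Where a keratin had its highest level was mostly alike in the libraries, whose cells were clustered together. The cluster with the highest level matched for 19 of 29 members, and for 13 of the 15 members with more than 1000 UMIs. The exceptions among these 15 were Krt14, whose leading clusters 11 and IFE basal-like changed places, and Krt32, a hair keratin of type I that did not exceed 29.7 CPM in any cluster.

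Krt14 (chromosome 11, 100203162 to 100207510) was the most abundant member, with 468374 control and 326895 induced UMIs. It reached 18253 CPM (18168 to 18338) in control IFE basal-like cells and 17043 CPM (16941 to 17146) in induced ones. HF-SC-like cells held 9712 and 8913 CPM, and IFE suprabasal-like cells still held 7554 and 6625 CPM. Its partner Krt5 (chromosome 15, 101707069 to 101712905) stood at 6500 CPM (6449 to 6550.3) and 6405 CPM (6342 to 6468) in IFE basal-like cells. Together the pair gave 75.3% of the keratin UMIs there in the control library and 75.6% in the induced.

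Away from IFE basal-like cells the pair was kept together in some clusters and not in others. HF-SC-like cells held 2.13 control and 1.75 induced transcripts of Krt14 per Krt5 transcript, and IFE suprabasal-like cells 1.65 and 1.97. In inner bulge-like cells Krt5 was at 5308 CPM (5183 to 5436) in control and 5151 CPM (5070 to 5234) in induced cells, whereas Krt14 was at 346 CPM (314 to 380) and 228 CPM (211 to 246). Transcripts of Krt14 thus numbered 0.07 and 0.04 per Krt5 transcript, against 2.81 and 2.66 in IFE basal-like cells. After each cell was thinned to 5000 UMIs, every inner bulge-like cell held Krt5 (151 of 151 control and 344 of 344 induced), and Krt14 was found in 56.3% and 45.1%. That Krt14 share lay below the 60.2% and 55.3% of immune cells (antigen-presenting, T cell and cluster 16). Those clusters differed, with keratin at 0.06% of control UMIs in T cell-like cells and 0.73% in cluster 16. In induced cells it was at 0.05% and 0.32%. Whether the Krt14 of inner bulge-like cells is free RNA was not tested. The unthinned medians were 7834 and 7628 UMIs per inner bulge-like cell and 7306 and 6255 per immune cell. Cluster 8 and the HF-SC-like cluster 17 also held more Krt5 than Krt14, at ratios of 0.34 in both libraries for cluster 8 and of 0.41 and 0.54 for cluster 17.

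The opposite imbalance was seen in sebaceous gland-like cells, where all 15 control and 31 induced thinned cells held Krt14 and only 2 in each library held Krt5. Krt14 there was at 4652 and 4326 CPM, 114 and 144 transcripts for each of Krt5. Krt79, a type II keratin, accompanied it at 2028 and 2017 CPM. Upper HF-like cells held 6.06 and 5.59 transcripts of Krt14 for each of Krt5, and the share of thinned cells with a Krt5 UMI was 36.6% and 37.6%, against 28.4% and 23.6% of immune cells. Over the 15 epithelial clusters the log CPM of Krt14 and Krt5 had a Pearson r of 0.11 in the control and 0.10 in the induced library, a description over clusters that share their libraries.

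**Figure D2:**
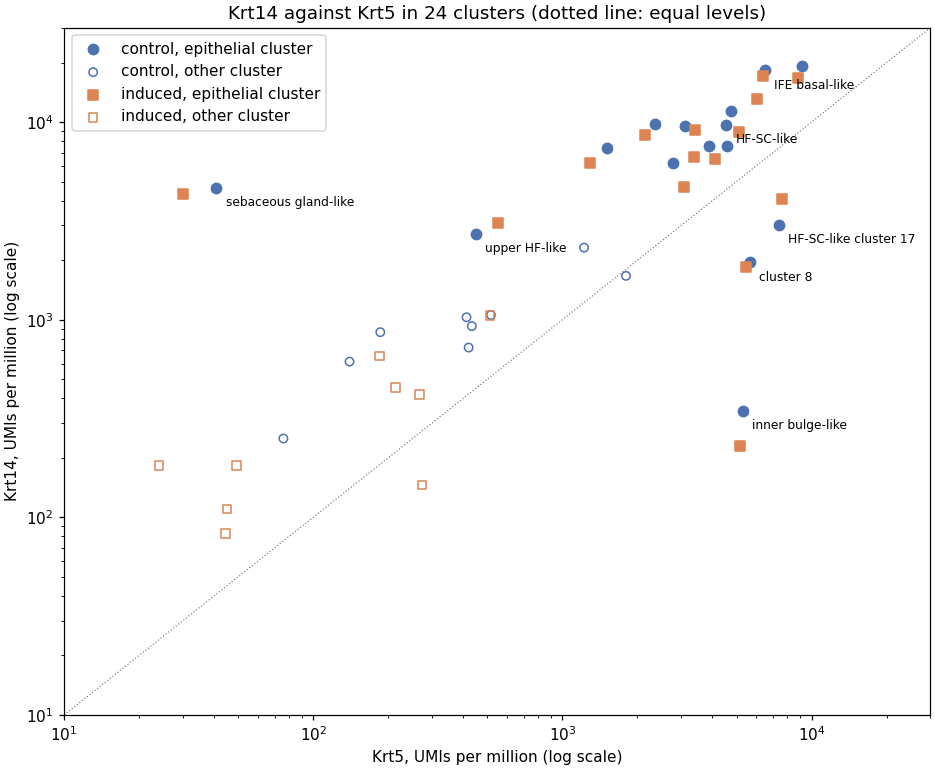
Krt14 (vertical axis) against Krt5 (horizontal axis), both in CPM on log axes, for 15 epithelial clusters (filled) and 9 other clusters (open) of the control (circles) and induced (squares) library, with labels beside control points. Most epithelial clusters lie above the dotted line of equal levels, whereas inner bulge-like cells, cluster 8 and the HF-SC-like cluster 17 lie below it and sebaceous gland-like cells lie far to the left.

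Krt15 (chromosome 11, 100131759 to 100135949), a type I keratin known from the bulge, followed Krt5 more closely than Krt14 did. Its log CPM over the epithelial clusters had an r of 0.90 and 0.92 with Krt5. It peaked in the HF-SC-like cluster 17 at 18596 CPM (18025 to 19181) in control and 18806 CPM (18418 to 19201) in induced cells, then in inner bulge-like cells at 11779 and 13789 CPM and in HF-SC-like cells at 8245 and 10598 CPM. IFE basal-like cells held 4174 and 4218 CPM. In inner bulge-like cells Krt15 was the leading keratin, with 47.3% and 52.4% of keratin UMIs.

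Krt10 and Krt1, the pair that replaces the basal pair as keratinocytes differentiate, were highest in IFE suprabasal-like cells. Krt14 and Krt5 still gave 24.9% and 15.1% of control keratin UMIs and 20.7% and 10.6% of induced ones there. Krt10 (chromosome 11, 99385254 to 99397449) was at 6126 CPM (6040 to 6212) in control and 8195 CPM (8089 to 8302) in induced IFE suprabasal-like cells. Krt1 was at 2407 CPM (2353 to 2462) and 2812 CPM (2750 to 2875) there. Krt77 (chromosome 15, 101858731 to 101869706), a type II keratin closely related to Krt1, was at 1622 CPM (1578 to 1667) and 3353 CPM (3285 to 3422). These 3 genes had alike profiles over epithelial clusters, with an r of 0.89 and 0.92 between Krt10 and Krt1, and of 0.90 and 0.94 between Krt77 and Krt1.

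Single IFE suprabasal-like cells spanned the whole range from Krt14 to Krt10. The share of Krt10 in the sum of Krt10 and Krt14 had a median of 62.8% per control cell with quartiles of 15.6% and 97.4%, and a median of 76.7% per induced cell with quartiles of 16.6% and 98.4%. Cells above 90% numbered 53 of 167 (31.7%) in control and 61 of 143 (42.7%) in induced, and cells under 10% numbered 33 and 29. In IFE basal-like cells 579 of 584 control and 357 of 359 induced cells were under 10%.

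Upper HF-like cells held the suprabasal keratins in another ratio. Krt10 was at 1488 and 1307 CPM and Krt77 at 1047 and 1222 CPM, but Krt1 was at only 80.5 and 103.7 CPM. Krt10 transcripts outnumbered those of Krt1 by 18.5 and 12.6 to 1 there, against 2.55 and 2.91 to 1 in IFE suprabasal-like cells. Among thinned cells Krt77 was found in 81.9% and 89.5% of upper HF-like cells, and Krt10 in 49.01% and 50.4%. Immune cells held Krt77 in 6.82% and 7.32% and Krt10 in 10.2% and 4.88%. Of upper HF-like cells' Krt1 UMIs, the 5 richest cells held 57.9% and 75.2%.

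Krt78 and Krt2, type II keratins of upper epidermal layers, were rare. Krt78 had 86 control and 133 induced UMIs, of which 58 and 108 were in IFE suprabasal-like cells. Krt2 had 21 and 34 UMIs in all.

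The upper follicle was marked by Krt17 and Krt79. In upper HF-like cells Krt17, a type I keratin of the follicle, was at 12083 CPM (12001 to 12164) in control and 9917 CPM (9840 to 9994) in induced cells. Krt79, a type II keratin of the infundibulum, was at 8486 CPM (8418 to 8555) and 7666 CPM (7598 to 7734), and both together gave 69.9% and 63.5% of the keratin UMIs. Per cell, Krt79 made up a median of 42.2% and 45.5% of the sum of Krt79 and Krt17, over 464 of 474 control and 402 of 407 induced cells. Krt23, a type I keratin, was nearly restricted to the same cells, with 1672 of 1801 control and 1341 of 1432 induced UMIs. Its 5 richest upper HF-like cells held 21.2% and 17.8% of them. Krt80, a type II keratin, was also highest there, at 365 and 317 CPM.

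Krt17 was higher still in cluster 8, at 16145 CPM (15889 to 16404) and 13787 CPM (13598 to 13978), where it gave 55.2% and 51.7% of keratin UMIs. Cluster 8 held only 16 control and 47 induced UMIs of Krt79. In its single cells Krt6a made up a median of 8.57% and 3.15% of the sum of Krt6a and Krt17, over 107 of 112 control and 166 of 171 induced cells. Of the 50-base words in the last 500 bases of the Krt14 and Krt17 transcripts, 9.53% occur in the other of these genes or in Krt16, so a small part of their reads could not be assigned by sequence. For Krt16 that share was 1.33%, for Krt27 5.99%, shared with Krt25, and for other annotated members 0.

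Krt6a and Krt16, keratins of the inner bulge and companion layer that epidermis also makes after injury, separated in location. Krt6a led in HF-SC-like cells, at 3512 CPM (3449 to 3577) in control and 3493 CPM (3427 to 3561) in induced cells, and was found in 95.8% and 94.4% of those cells after thinning, against 12.5% and 6.50% of immune cells. It was at 2568 and 1507 CPM in cluster 8 and at 1782 and 1593 CPM in inner bulge-like cells. Krt16 led in IFE suprabasal-like cells, at 3567 and 3013 CPM, followed by inner bulge-like cells at 2533 and 1692 CPM. IFE basal-like cells came next in control at 2031 CPM, whereas in the induced library they held 1435 CPM, below cluster 9 at 1548 CPM. In HF-SC-like cells a Krt16 UMI was present in 128 of 328 control and 120 of 296 induced cells. Krt6b, the near copy of Krt6a, had 6 UMIs and is no member.

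Krt75, a type II keratin of the companion layer, was highest in inner bulge-like cells, at 171 CPM (149 to 195) and 230 CPM (213 to 248). It was found in 23.8% and 29.7% of thinned inner bulge-like cells and in 0 of 88 control and 0 of 123 induced immune cells, which allows shares of up to 3.41% and 2.44%. Cells with at least 5 Krt75 UMIs, 27 in control and 57 in induced, held 74.3% and 73.9% of all its UMIs.

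Krt24 (chromosome 11, 99279959 to 99285262), a type I keratin, was found mainly in HF-SC-like cells, with 1035 of its 1246 control UMIs and 2610 of its 3357 induced UMIs. It was at 313 CPM (294 to 333) in control and 860 CPM (828 to 894) in induced HF-SC-like cells, and at 432 CPM (349 to 529) and 1063 CPM (972 to 1160) in the HF-SC-like cluster 17. Inner bulge-like cells held only 7 and 16 UMIs. Over epithelial clusters its log CPM had an r of 0.65 and 0.61 with Krt15.

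The remaining members were sparse. The hair keratin Krt32 had 505 and 544 UMIs, spread over 373 control and 365 induced cells. Krt25, Krt27 and Krt71, keratins of the inner root sheath, had 81, 52 and 8 control UMIs and 118, 24 and 20 induced UMIs, and 1 induced HF-SC-like cell alone held 82 of the 118 Krt25 UMIs. Krt27 had 28 of its 52 control UMIs in 1 upper HF-like cell. Krt42, a type I keratin, had 84 and 90 UMIs, and its highest level was in cluster 8, at 17.04 and 10.9 CPM. Krt90 had 8 and 22 UMIs, of which 6 and 21 were in HF-SC-like cells. Krt83, a hair keratin, had 13 and 19 UMIs, of which 4 and 4 came from T cell-like cells and 3 and 4 from cluster 16, led by Gzmb, Icos and Cd8a. Krt4 and Krt13, the pair of internal stratified epithelia, had 6 and 16 UMIs and 23 and 2 UMIs, with 17 of the 23 in 2 control upper HF-like cells.

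**Figure D3:**
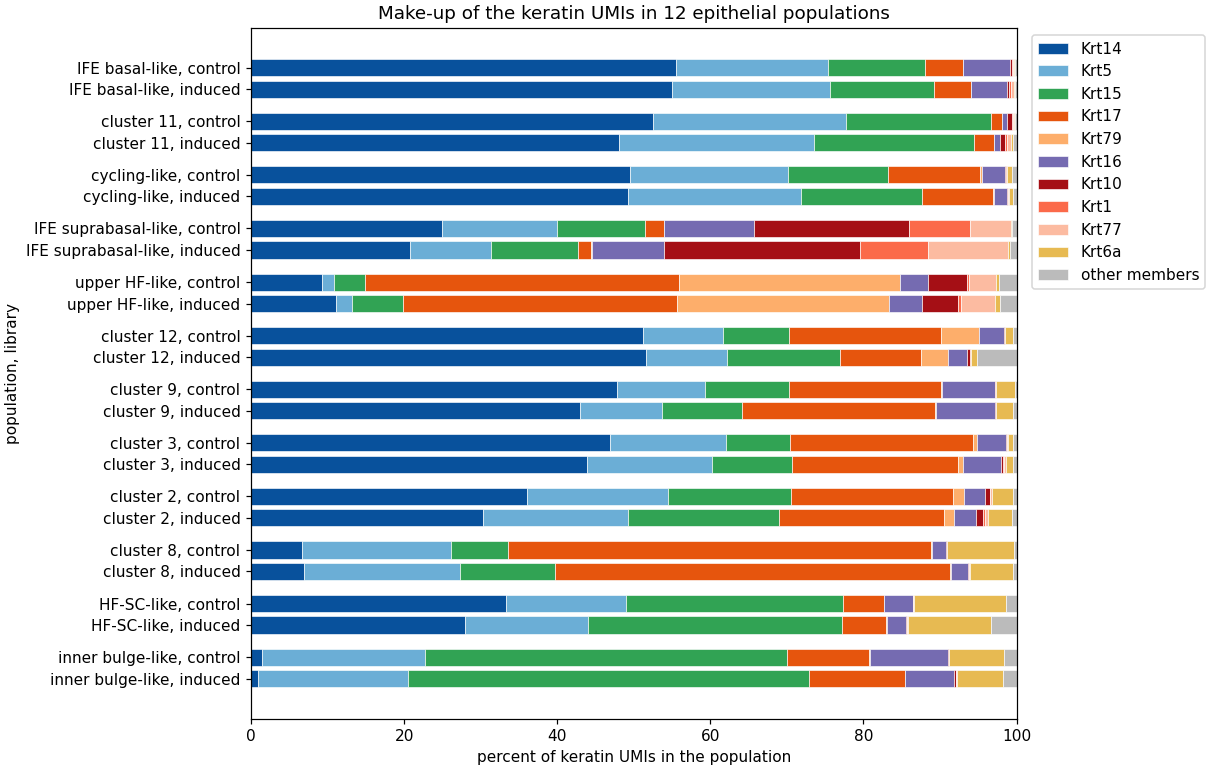
Make-up of the keratin UMIs (horizontal axis, percent) in the 12 epithelial populations with at least 50 cells per library, with a bar for each library and colours for the 10 leading members. Krt14 fills 55.5% and 54.9% of the IFE basal-like bars and almost none of the inner bulge-like bars, and Krt10 grows from 20.2% in control to 25.7% in induced IFE suprabasal-like cells.

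The induced library was then compared with the control within each population. A member was called higher or lower where the CPM differed at least 1.5-fold and the libraries together held at least 100 UMIs in the population. Over the 12 epithelial populations 125 member values reached 100 UMIs, from 20 of the 29 members. Of these 125 values 25 were higher (20%) and 8 lower (6.40%), against 3.67% higher and 3.36% lower of 60699 values over all genes. The median member log2 ratio was 0.09. Without the 5 cells per library that held most UMIs of the gene, 16 values were higher. The other 9 members, Krt42, Krt19, Krt27, Krt2, Krt83, Krt90, Krt71, Krt13 and Krt4, did not reach 100 UMIs in any epithelial population.

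Of the 25 higher calls 12 fell on suprabasal keratins, with Krt77 in 5 populations, Krt10 in 4 and Krt1 in 3. Krt10 and Krt1 in cluster 2 and Krt10 in cluster 12 turned direction under an alternative. Krt80 was called in 3 populations and no other member in more than 2. Krt77 was above a log2 ratio of 0 in all 6 populations where it reached 100 UMIs and Krt1 in all 5. In the clusters outside the epithelium Krt77 was also higher, at 7.54 CPM in control and 19.8 CPM in induced cells, whereas Krt1 was lower. The part of free RNA in these values was not tested. The abundant members moved less. Krt5 had no call, with log2 ratios from −0.44 in IFE suprabasal-like cells to 0.35 in cycling-like cells. Krt14 lay between −0.24 and 0.21 in 11 of 12 populations, the exception being the inner bulge-like cells.

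**Figure D4:**
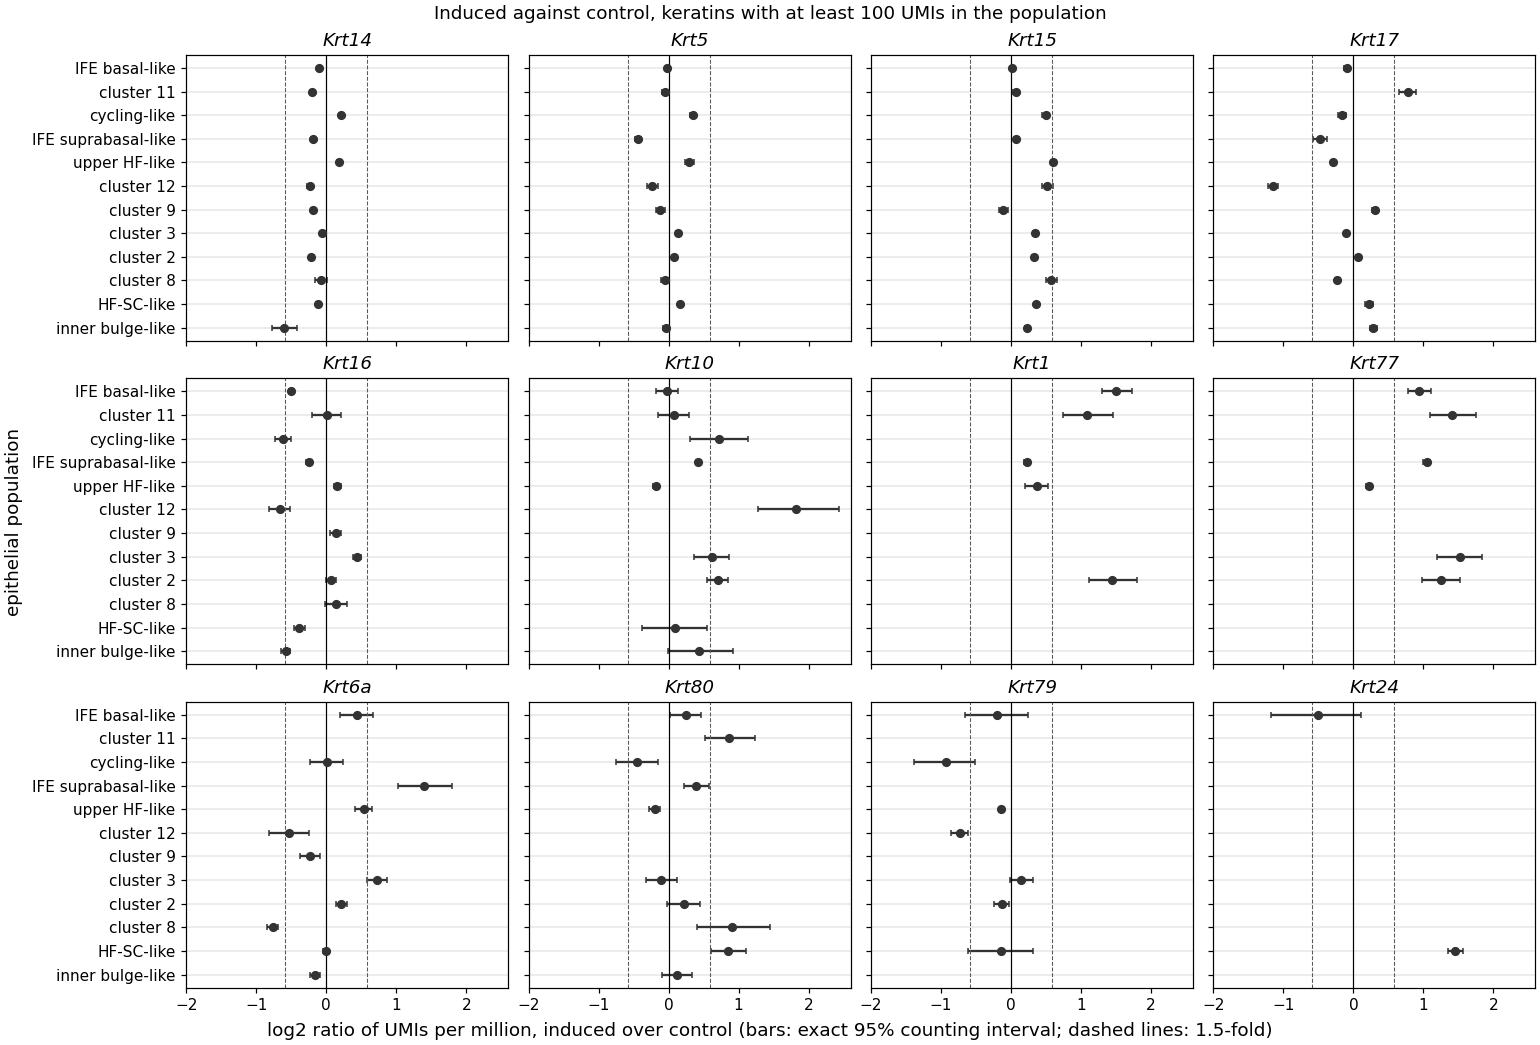
Log2 ratio of CPM, induced over control (horizontal axis), in the 12 epithelial populations (vertical axis) for 12 members with at least 100 UMIs in the population. Points are ratios, bars exact 95% counting intervals and dashed lines 1.5-fold. Krt77 and Krt1 lie to the right of 0 in the populations where they reached 100 UMIs. Krt14 and Krt5 stay within the dashed lines outside inner bulge-like cells.

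In IFE suprabasal-like cells 3 of 11 members were higher and none lower, where 4.63% of all genes were higher and 3.93% lower. Krt77 rose 2.07-fold (2.00 to 2.14), from 5145 to 9312 UMIs. The 5 richest cells held 15.7% of the control and 25.6% of the induced Krt77 UMIs, and the log2 ratio of 1.05 was 0.90 without them. Krt78 rose from 58 to 108 UMIs, with a log2 ratio of 1.08 (0.62 to 1.57) that was 0.43 without the 5 richest cells. Krt6a rose from 83 to 192 UMIs, a log2 ratio of 1.40 (1.02 to 1.79), and the 5 richest cells held 71.1% and 57.3% of these. Krt10 had a log2 ratio of 0.42 (0.39 to 0.45) and Krt1 of 0.22 (0.18 to 0.27), both under 1.5-fold.

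Cell by cell the Krt77 difference was spread over the suprabasal population. The median level per cell was 936 CPM in control and 2041 CPM in induced cells, and the upper quartiles were 2603 and 3623 CPM. Relative to Krt1 in the same cell, Krt77 made up a median of 41.6% in control and 50% in induced cells. That share was taken over the 135 of 167 control and 129 of 143 induced cells with at least 10 UMIs of the pair. The summed level of the 7 suprabasal markers, none of them a keratin, went from 9276 to 12401 CPM there, a log2 ratio of 0.42. The mix of earlier and later suprabasal cells can differ between the libraries, and its part in the result was not tested.

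In IFE basal-like cells Krt77 and Krt1 were higher, 2 of 13 members, where 3.75% of all genes were higher, and no member was lower, where 2.62% were. Krt1 rose 2.84-fold (2.45 to 3.30), from 28.8 CPM (25.5 to 32.4) to 81.8 CPM (74.9 to 89.3). A Krt1 UMI was present in 112 of 584 control cells (19.2%) and 125 of 359 induced cells (34.8%), and after thinning in 9.55% and 18.6%, against 1.14% and 0.81% of immune cells. Krt77 rose 1.92-fold (1.72 to 2.15), from 57.0 to 109.5 CPM, and its thinned share went from 17.5% to 28.2%. Krt10 in the same cells was at 88.2 CPM (82.4 to 94.3) and 86.5 CPM (79.4 to 94.1), so that Krt10 and Krt1 stood at 3.06 to 1 in control and 1.06 to 1 in induced cells. The log2 ratio of Krt1 was 1.36 to 1.62 and that of Krt77 0.80 to 1.02 under the alternatives to the processing. The summed suprabasal markers had a log2 ratio of 0.29 (0.25 to 0.33) in these cells, and the part of suprabasal cells or free RNA in the result was not tested.

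The same pair of type II genes was called in cluster 11, where Krt77, Krt1, Krt17 and Krt80 were higher, 4 of 9 members, against 2.97% of all genes, and none was lower, against 2.72%. Krt77 rose from 65.3 to 174.6 CPM, a log2 ratio of 1.42 (1.09 to 1.75), and Krt1 from 60.02 to 128.1 CPM, a log2 ratio of 1.09 (0.74 to 1.46). Krt17 rose from 528 to 904 CPM, but its 5 richest cells held 37.5% of its control UMIs and 67.0% of its induced UMIs. The summed suprabasal markers had a log2 ratio of 0.56 in this cluster.

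In cluster 2 Krt77, Krt1 and Krt10 were higher, 3 of 12 members, against 3.02% of all genes higher and 1.75% lower. Their log2 ratios were 1.24 (0.98 to 1.52), 1.44 (1.11 to 1.79) and 0.70 (0.55 to 0.85). With keratins kept in the clustering, Krt1 was at −0.37 and Krt10 at −1.33, so their direction depended on the clustering, while Krt77 stayed at or above 0.67 under the alternatives. In cluster 3 Krt77, Krt75, Krt6a and Krt10 were higher, 4 of 12, against 2.85% of all genes higher and 2.00% lower. Krt77 rose there from 130 to 224 UMIs, a log2 ratio of 1.52 (1.20 to 1.84), and Krt6a from 116 to 193 CPM. The Krt75 value rested on 5 cells that held 79.7% of its control and 95.7% of its induced UMIs.

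In upper HF-like cells Krt77 had a log2 ratio of 0.22 (0.18 to 0.27), and Krt10 of −0.19 (−0.23 to −0.15). Of 15 members 1, Krt15, was higher, where 2.97% of all genes were higher, and 1, Krt75, was lower, where 1.93% were. Krt15 rose 1.52-fold (1.48 to 1.57), from 1216 to 1851 CPM, and was called in 7 of 9 alternatives. Krt75 had 91 and 36 UMIs, of which the 5 richest cells held 86.8% and 72.2%, and it was higher, at a log2 ratio of 2.502, with keratins kept in the clustering. Krt17 and Krt79, the leading keratins of these cells, had log2 ratios of −0.29 (−0.30 to −0.27) and −0.15 (−0.16 to −0.13).

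The largest difference with at least 1000 UMIs in an epithelial population was that of Krt24 in the HF-SC-like cluster. In HF-SC-like cells Krt24, Krt80 and Krt25 were higher, 3 of 11 members, where 4.83% of all genes were higher, and none was lower, where 4.58% were. Krt24 rose 2.75-fold (2.56 to 2.96), from 1035 UMIs to 2610 UMIs. The 5 richest cells held 9.76% and 8.08% of these, and the log2 ratio of 1.46 (1.35 to 1.56) stayed between 1.39 and 1.49 under all 9 alternatives. Krt24 also rose in the HF-SC-like cluster 17, which has only 30 control and 59 induced cells, with a log2 ratio of 1.29 (0.98 to 1.63).

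The rise was seen both in how many HF-SC-like cells held Krt24 and in how much they held. At 5000 UMIs per cell 162 of 311 control cells (52.1%, 46.4 to 57.8) and 214 of 286 induced cells (74.8%, 69.4 to 79.7) held a Krt24 UMI, and unthinned shares were 64.0% and 81.4%. Immune cells held it in 0 of 88 control cells, which allows a share of up to 3.41%, and in 2 of 123 induced cells (1.63%). The median per cell was 142 CPM in control and 581 CPM in induced cells, and the upper quartiles were 481 and 1280 CPM. Among HF-SC-like cells the summed HF-SC markers went from 2166 to 2313 CPM, a log2 ratio of 0.09. The summed inner bulge markers went from 172 to 344 CPM, a log2 ratio of 1.00. That list was not particular to the inner bulge, at 336 CPM in control inner bulge-like cells and 506 and 598 CPM in control clusters 3 and 12. The summed IFE basal markers fell from 7276 to 4197 CPM in HF-SC-like cells, a log2 ratio of −0.79. The IFE basal list was not particular to its class either, at 5624 CPM in control IFE basal-like cells and 8134 and 6589 CPM in control clusters 8 and 3. The suprabasal and upper HF lists had log2 ratios of 0.25 and 0.26 there. The part of such a difference in cell make-up in the Krt24 result was not tested.

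Krt80 rose in the same cells from 62.9 to 113.7 CPM, a log2 ratio of 0.85 (0.60 to 1.11), and from 125 of 328 to 167 of 296 cells with a UMI. The Krt25 call was made by the 1 cell with 82 UMIs, and its log2 ratio of 1.85 became −2.19 without the 5 richest cells. The main HF-SC keratins were within 1.5-fold. Krt15 had a log2 ratio of 0.36 (0.34 to 0.39), Krt6a of −0.01 (−0.05 to 0.03) and Krt14 of −0.12. The median log2 ratio of the 11 members there was 0.16, against 0.01 over all genes.

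**Figure D5:**
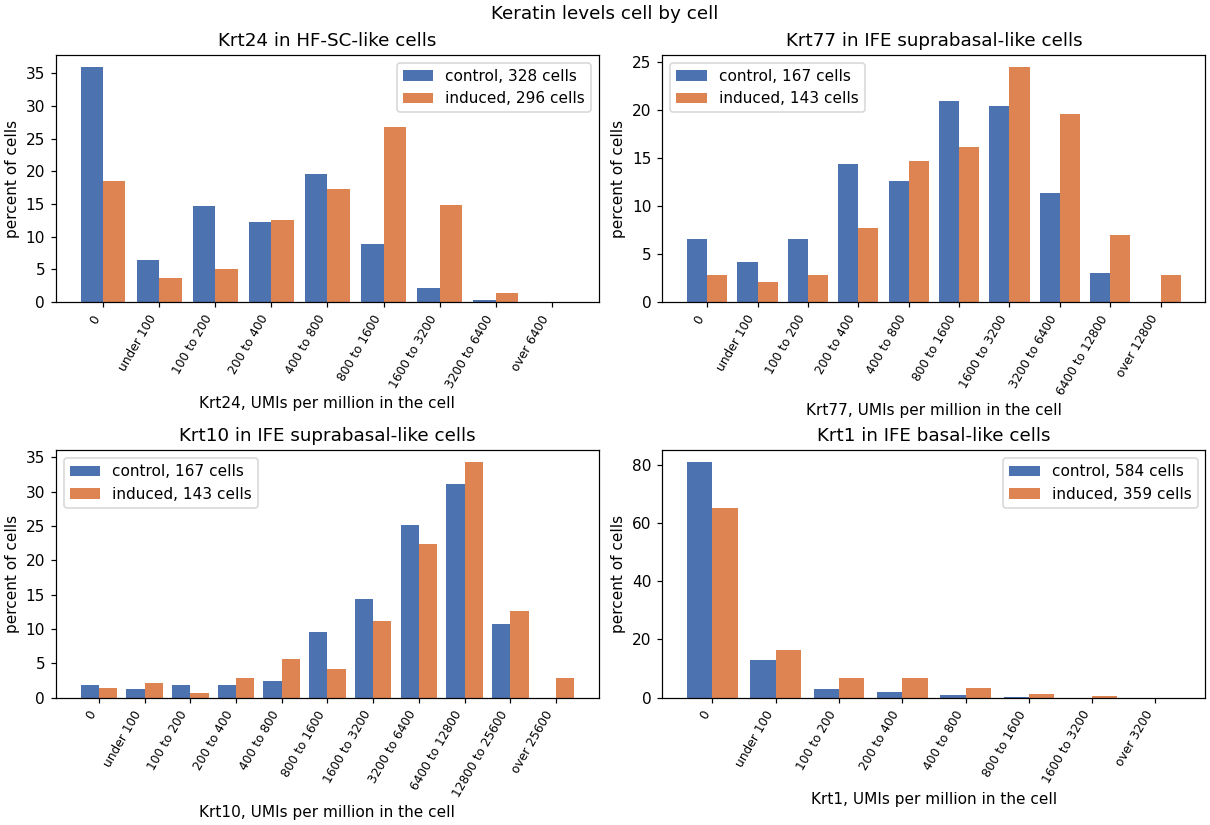
Percent of cells (vertical axis) in bins of CPM in the cell (horizontal axis) for Krt24 in HF-SC-like cells, Krt77 and Krt10 in IFE suprabasal-like cells and Krt1 in IFE basal-like cells, with control and induced bars side by side. Induced HF-SC-like cells less often lack Krt24 and more often lie above 800, and Krt1 is absent from most IFE basal-like cells of both libraries.

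In inner bulge-like cells 1 of 10 members, Krt14, was lower, where 2.14% of all genes were lower, and none was higher, where 4.01% were. Krt14 went from 443 to 671 UMIs in 170 and 381 cells, a log2 ratio of −0.60 (−0.78 to −0.42). Its share of thinned cells there lay below that of immune cells, as given above, and the part of free RNA was not tested. Krt16 had a log2 ratio of −0.58 (−0.65 to −0.52) there, just under 1.5-fold, and 4 of 9 alternatives called it lower, with −1.50 at under 5% mitochondrial UMIs. In IFE basal-like cells it had −0.50 (−0.54 to −0.46). Krt75 had a log2 ratio of 0.42 (0.20 to 0.65) in inner bulge-like cells, which turned to −0.65 at under 5% mitochondrial UMIs.

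Krt15 lay above 0 in 11 of the 12 epithelial populations, with a median log2 ratio of 0.34. The exception was cluster 9, at −0.11, and the value in IFE basal-like cells was 0.01 (−0.01 to 0.04).

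In cluster 8 Krt80 was higher and Krt6a lower, 1 each of 7 members, against 3.09% higher and 4.08% lower of all genes. Krt6a fell from 2568 CPM (2466 to 2672) to 1507 CPM (1445 to 1572). Its log2 ratio was −0.77 (−0.85 to −0.68), and its thinned share went from 74.0% to 58.6% of cells. At a clustering resolution of 0.4 the log2 ratio was −0.25. Krt80 rose from 43 to 127 UMIs, a log2 ratio of 0.91 (0.41 to 1.45). In cluster 9 none of 6 members was called, where 5.01% of all genes were higher and 5.93% lower.

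In cycling-like cells Krt10 was higher, at 100 UMIs in each library, and Krt79 and Krt16 were lower, 3 calls among 9 members, against 3.43% higher and 5.69% lower of all genes. Krt79 had 186 and 59 UMIs, of which the 5 richest cells held 69.9% and 50.8%, and its log2 ratio of −0.93 became −0.18 without them. Krt16 went from 690 to 449 CPM, a log2 ratio of −0.62 (−0.74 to −0.50), and was called in 6 of 9 alternatives.

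Cluster 12 had the most calls, 6 of 10 members, with Krt10, Krt18 and Krt8 higher against 4.30% of all genes, and Krt17, Krt79 and Krt16 lower against 5.87%. Krt17 fell 2.22-fold, from 2849 CPM (2775 to 2924) to 1281 CPM (1230 to 1334), and stayed lower by at least 0.71 on the log2 scale under all 9 alternatives. Krt79 had a log2 ratio of −0.73, which was −0.029 at resolution 0.4 and −0.14 at under 5% mitochondrial UMIs, and Krt16 of −0.67. The direction of Krt10, from 34 to 113 UMIs, reversed with the stricter mitochondrial limit. The summed suprabasal markers had a log2 ratio of −0.75 in this cluster.

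The simple keratins Krt8, Krt18 and Krt19 differed through a handful of cells. Krt8 had 46 control and 595 induced UMIs, Krt18 had 103 and 585, and Krt19 had 13 and 115. In the induced library 3 cells held at least 5 UMIs of both Krt8 and Krt18, 2 of them in cluster 12 and 1 in cluster 2, and the control library had none. They held 261, 140 and 18 UMIs of Krt8 and 377, 99 and 62 of Krt18, with 97 UMIs of Krt19 in the first. Each of these cells held at most 2 UMIs of Krt14 and at most 1 of Krt5, Krt15 or Krt17. None of the 5 Merkel cell markers and no UMI of Krt20 was found in them, and they were not among the highest-scoring doublets. Without the 5 richest cells the log2 ratio of Krt18 in cluster 12 went from 3.26 to −1.79, and that of Krt8 from 6.17 to 3.28. Only 4 control and 9 induced cells of cluster 12 held a Krt8 UMI, and 15 and 9 a Krt18 UMI. The values without the richest cells thus rest on very few UMIs, and for Krt8 on none in the control. Krt7, the fourth simple keratin, had 242 and 225 UMIs and was highest in upper HF-like cells of the control, at 12.8 CPM, and in cluster 12 of the induced library, at 16.1 CPM. The same 2 cells of cluster 12 held 28 and 2 of the induced Krt7 UMIs, and the cell of cluster 2 held 11. The induced peak in cluster 12 thus came from those cells.

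Outside the epithelium keratins were low but present. The 9 other clusters held keratin at 0.21% of UMIs in the control and 0.14% in the induced library. Krt14 there was at 9.67% of its epithelial level in control and 5.55% in induced cells, Krt5 at 10.3% and 5.50%, Krt15 at 7.81% and 5.19%, and Krt17 at 4.18% and 5.05%. Krt79 was at 1.37% and 6.12%. Krt77 was at 2.61% and 4.24%, with 26 control and 98 induced UMIs, and Krt1 at 6.10% and 1.29%, with 39 and 15 UMIs. In dermal papilla-like cells Krt15 and Krt16 were higher and Krt14 and Krt5 lower, 4 of 5 members, against 5.27% higher and 6.31% lower of all genes. Without the highest-scoring doublets Krt15 was at −0.023 and Krt16 at −0.16 there, so that neither was higher. In fibroblast-like cells Krt17, Krt15, Krt5, Krt79 and Krt10 were higher, 5 of 7 members, against 6.46% higher and 2.81% lower. The epithelial genes Cdh1 and Perp summed to 80.5 and 129.8 CPM in fibroblast-like cells, a log2 ratio of 0.69. Krt17 and Krt79 there were at log2 ratios of −0.26 and −0.41 without the 5 richest cells, and Krt5 was at −0.00997 without the highest-scoring doublets and −0.12 with keratins kept in the clustering.

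Genes that work with keratins were taken as 3 lists. Of 15 anchor genes (desmosome, hemidesmosome and filament-bundling proteins), 123 values over the 12 populations included 1 higher and 6 lower, where 3.67% of all gene values were higher and 3.36% lower. The most abundant, Dsp, Jup and Dst, had no call. Of the 6 lower values, 2 were Flg and Flg2 in upper HF-like cells, filament-bundling genes of the granular layer, which fell from 539 to 19 UMIs and from 1646 to 216 UMIs. The 5 richest cells held 99.4% of the control Flg UMIs and 99.2% of those of Flg2. The other lower values were Eppk1 in cluster 9, Evpl in inner bulge-like cells, Fam83h in cluster 12 and Pkp1 in cluster 8, and the higher value was Eppk1 in HF-SC-like cells.

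Of 9 other intermediate filament genes, 21 values included 2 higher and 2 lower, against the same 3.67% and 3.36% of all gene values, and at under 5% mitochondrial UMIs 0 were called in either direction. Lmna, the most abundant, had no call. Vim, the filament of mesenchymal cells, was higher in IFE basal-like and upper HF-like cells, and lower in cycling-like cells, from 464 to 52 UMIs, where 5 control cells held 98.3%. Lmnb1 was lower in cluster 2.

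Of 16 transcription factors known to act on keratin genes, 154 values included 13 higher and 7 lower, against 3.67% and 3.36% of all gene values. Cebpb, a factor of early differentiation, was higher in 4 populations, IFE basal-like, 2, 3 and 12, with log2 ratios of 0.59, 0.63, 0.72 and 0.65. Lhx2 was higher in upper HF-like, cluster 2 and cycling-like cells, Ovol1 in cluster 8, and Tfap2c and Cebpa in cluster 9. Grhl3 was lower in cluster 2, Hoxc13 in cluster 9 and Cebpa in inner bulge-like cells. Klf5 and Ovol1 were lower in cycling-like cells, and Tfap2c was lower in HF-SC-like cells. In HF-SC-like cells Cebpa was higher (38.1 to 73.5 CPM) and Klf5 lower (241 to 152 CPM). In IFE suprabasal-like cells Klf4, a factor of late differentiation, rose from 335 to 509 CPM, a log2 ratio of 0.60 (0.49 to 0.72), and Sox9, a factor of the follicle, from 28.1 to 100.1 CPM. The 5 richest cells held 42.7% of the control and 69.1% of the induced Sox9 UMIs. The list medians per population ran from −0.27 to 0.31.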

How the data were processed

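One droplet library per mouse was read 3′ and, per the labels, processed by the authors with Cell Ranger 3.0.1 and build mm10. The authors deposited raw UMI counts per gene and barcode, which are whole numbers without normalization. There were 4545 control and 4264 induced barcodes, with totals of 55465594 and 49733560 UMIs.

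Cells with more than 200 and fewer than 5000 genes and under 10% mitochondrial UMIs were kept, as in the study. Seurat 5.3.0 (R 4.3.3) integrated and clustered both libraries on 2000 variable genes without keratins, with 30 dimensions and resolution 0.8. A cluster was named where at least 3 markers of a class had at least 20 UMIs and were raised at least 2-fold. The class also had to have as many markers among the 10 leading genes of the cluster as any other class. Where no class had any there, at least 60% of its markers had to be raised and the cluster not shallow. Ties went to the larger share raised, and epithelial clusters took no non-epithelial name. This rule was set after the clusters were seen. Doublets were not removed. Scrublet (scanpy 1.11.5) marked 4 and 5 cells by its own threshold, so an alternative left out the 124 and 105 highest-scoring cells, from a rate of 0.8% per 1000 cells.

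Population sums of UMIs in each library were scaled to CPM. Levels have exact Poisson intervals, shares Clopper-Pearson intervals and ratios conditional binomial intervals at 95% (scipy 1.17.1), which cover counting error only. There was no test, since each group has 1 library. Log2 ratios are induced over control with 0.5 UMIs added. For shares, cells were thinned to 5000 UMIs and shallower cells left out, and for a share of 0 the limit that 3 counts allow is printed. The share of 1 keratin in the sum of 2 was taken per unthinned cell, in cells with at least 10 UMIs of the pair. Called means at least 1.5-fold with at least 100 UMIs. Named are the 20 members with most UMIs, the 3 highest and 3 lowest ratios per population and members near the 20 UMI minimum. Of the partner lists the genes called are named, with the most abundant of the anchors and of the other intermediate filament genes. Members and lists were chosen with earlier results of these data known. Gene positions, promoters and the microRNA come from RefSeq GRCm38.p6 (29 of 29 members matched by symbol). Shared words came from an annotation of another build and used transcript sequence only, and it lacks Krt90. The ratio calculation was run on simulated Poisson counts drawn from control profiles. These held no spread between mice or cells, so that run covers the arithmetic only. Alternatives changed the mitochondrial limit, doublets, scaling, thresholds, clustering and the richest cells.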

Additional observations from a re-analysis of the deposited data

Results flagged for a closer look

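Some members were called in opposite directions in different populations, each comparing 1 library with 1, and the differences between populations were not tested. Krt6a had a log2 ratio (induced over control) of 0.73 in cluster 3 and 1.40 in IFE suprabasal-like cells, but of −0.77 in cluster 8. Krt17 was at 0.77 in cluster 11 and 1.61 in fibroblast-like cells, but at −1.15 in cluster 12. Krt75 was at 0.73 in cluster 3 and −1.20 in upper HF-like cells. Krt79 was at 2.70 in fibroblast-like cells, −0.73 in cluster 12 and −0.93 in cycling-like cells. Krt16 was at 2.26 in dermal papilla-like cells, −0.67 in cluster 12 and −0.62 in cycling-like cells. Krt5 was at 0.61 in fibroblast-like cells and −0.63 in dermal papilla-like cells. Several of these values turned direction under an alternative. Without the highest-scoring doublets Krt16 in dermal papilla-like cells was at −0.16, and without the 5 richest cells Krt17 and Krt79 in fibroblast-like cells were at −0.26 and −0.41 and Krt75 in cluster 3 at −1.31. With keratins kept in the clustering Krt75 in upper HF-like cells was at 2.502 and Krt5 in fibroblast-like cells at −0.12.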

How the results depend on the processing

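No paired analysis was possible because each group has 1 library, so the groups share fewer than 2 replicate numbers. Of 166 values of the summary results under alternatives, 144 stayed within their limits and 22 moved. Of 801 values of single genes, 605 stayed, 180 moved and 16 of called members reversed. Among 432 values of members not called, 34 changed sign. Log2 ratios reversed for Krt10 in cluster 12 (−0.61) and cluster 2 (−1.33) at under 5% mitochondrial UMIs, and for Krt15 (−0.023) and Krt16 (−0.16) in dermal papilla-like and Krt5 (−0.00997) in fibroblast-like cells without the highest-scoring doublets. With keratins kept among variable genes they reversed for Krt10 (−1.33) and Krt1 (−0.37) in cluster 2, Krt5 in fibroblast-like cells (−0.12) and Krt75 in upper HF-like cells (2.502). At resolution 0.4 they reversed for Krt10 in cluster 2 (−1.16) and Krt6a in cluster 17 (−0.0867). Without the 5 richest cells they reversed for Krt25 in HF-SC-like cells (−2.19), Krt18 in cluster 12 (−1.79), Krt75 in cluster 3 (−1.31), and Krt17 (−0.26) and Krt79 (−0.41) in fibroblast-like cells. Of the other calls in epithelial populations, Krt79 in cluster 12 and in cycling-like cells and Krt15 in upper HF-like cells were called in 7 of 9 alternatives and Krt16 in cycling-like cells in 6. Krt16 in cluster 12, Krt80 in clusters 8 and 11, Krt6a in clusters 3 and 8, Krt10 in cycling-like, Krt14 in inner bulge-like and Krt78 in IFE suprabasal-like cells were called in 8. Except where the alternative itself removes the cells, the cause was not tested.

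Member values called higher numbered 49 at a minimum of 20 UMIs, 13 at 400, 14 at 2-fold and 16 without the 5 richest cells, and 2 were lower at 2-fold. Krt17 in cluster 8 was at 9038 CPM in control and 9088 CPM in induced cells at resolution 0.4. Other intermediate filament genes had 0 higher and 0 lower values at under 5% mitochondrial UMIs and 1 lower without doublets. Anchors had 2 higher values without doublets and 2 with totals lacking mitochondrial and ribosomal UMIs. Thinning to 3000 UMIs and no thinning gave Krt24 shares of 43.4% and 64.0% in control and 66.9% and 81.4% in induced HF-SC-like cells, and Krt10 shares of 13.2% and 44.9% in control and 14.9% and 51.3% in induced IFE basal-like cells. Krt6a in HF-SC-like cells was at 91.1% in control and 90.4% in induced cells at 3000 UMIs. Depth limits members under 100 UMIs in a population, for which no change could be called.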
